A study of Homo sapiens with 6 samples.

Results

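MALAT1 and NEAT1 are long noncoding RNAs that stay in the nucleus, and both were counted in RNA from isolated mitochondria of HepG2 cells. They were selected by identifier (MALAT1, ENSG00000251562, and NEAT1, ENSG00000245532), and these 2 genes were found among the 57500 genes of each of the 6 count tables. The choice was made with their levels already known, so those levels are given as a description without a test. HepG2 is a human liver carcinoma line, labelled wild type and epithelial. Cells received the solvent DMSO alone (0 µM, the control), 10 µM GenX or 100 µM GenX for 48 h, with 2 libraries per dose. GenX is a perfluoroalkyl ether acid, brought in as a replacement for perfluorooctanoic acid (PFOA). Mitochondria were isolated with a kit, and stranded libraries were made from their total RNA after depletion of ribosomal RNA.

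MALAT1 lies in nuclear speckles, the bodies that store splicing factors, and NEAT1 is the scaffold on which paraspeckles are built. Both genes lie on chromosome 11, and neither mature RNA ends in an ordinary poly(A) tail. The enzyme RNase P cuts each primary transcript in front of a tRNA-like stretch, which is released as a small RNA (mascRNA from MALAT1, menRNA from NEAT1). The new 3′ end is held in a triple helix in which a genome-encoded A-rich tract pairs with U-rich motifs upstream. NEAT1 also has a shorter form that ends in a poly(A) tail and lies inside the 5′ part of the long form, so a count per gene cannot separate them. Such RNAs are used as a sign of nuclear material in a cell fraction. MALAT1 has also been reported inside mitochondria of hepatoma cells, and these counts cannot tell apart nuclear material in a preparation from MALAT1 located in mitochondria.

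The 3′ ends are shown because they are what the RNAs share in sequence and what sets them apart from polyadenylated mRNA. They are given 5′ to 3′ as plus-strand DNA of GRCh38 from GENCODE v29. Capitals mark the parts of both U-rich motifs and the end of the A-rich tract that are identical in both RNAs. In MALAT1 the U runs go on past the capitals. The MALAT1 stretch is chr11:65505997-65506116 and the NEAT1 stretch chr11:65445421-65445540.
MALAT1 3′ end: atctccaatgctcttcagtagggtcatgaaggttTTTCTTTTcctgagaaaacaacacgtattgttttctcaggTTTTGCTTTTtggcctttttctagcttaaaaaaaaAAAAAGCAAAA
NEAT1 3′ end: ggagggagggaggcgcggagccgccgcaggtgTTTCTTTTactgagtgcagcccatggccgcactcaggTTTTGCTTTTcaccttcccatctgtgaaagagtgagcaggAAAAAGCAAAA

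In these 120-base windows TTTCTTTT began at base 35 in MALAT1 and base 33 in NEAT1, TTTTGCTTTT at bases 75 and 70, and AAAAAGCAAAA was the last 11 bases of both. Among the last 120 bases of 200764 annotated transcripts, TTTTGCTTTT was found in 0.117%, or in 0.279% on either strand. TTTCTTTT was found in 1.48% (3.6% on either strand) and AAAAAGCAAAA in 0.0553% (0.0971%). The reverse complement of TTTTGCTTTT is AAAAGCAAAA, which lies inside AAAAAGCAAAA, so these searches overlap. All 3 were found together in 1 transcript, the long form of NEAT1, because the annotated MALAT1 transcripts run past the tract. The 3 stretches were picked as the longest that both ends share at these places. Their presence in both RNAs was thus fixed by the choice, and their rarity together is no test. An alignment of the whole windows held 77 identical bases in 133 columns (57.9%).

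Directly downstream lie the tRNA-like RNAs, chr11:65506117-65506173 for MALAT1 and chr11:65445541-65445598 for NEAT1, with the bases that matched in an alignment of both in capitals.
MALAT1 tRNA-like RNA: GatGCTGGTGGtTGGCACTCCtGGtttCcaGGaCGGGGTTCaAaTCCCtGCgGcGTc
NEAT1 tRNA-like RNA: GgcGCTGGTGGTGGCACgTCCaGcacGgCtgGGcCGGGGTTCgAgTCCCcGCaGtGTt

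The alignment held 41 identical bases in 61 columns (67.2%). Both small RNAs are listed as genes of their own, of 57 and 58 bases, and both had 0 counts in all 6 libraries. The MALAT1 one lies wholly inside the counted span of MALAT1, and how reads that overlap several genes were treated is not given in the sources used here. Small stable RNAs were close to absent from all libraries. Of 27 small nuclear and nucleolar RNAs, RN7SK, RPPH1 (the RNA of RNase P) and TERC among them, 3 had any count, with at most 5 counts summed in a library.

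Depth differed between doses and set the precision of each value. Libraries held 240683 and 60854 counts in the controls, 43556 and 29350 with 10 µM, and 2141282 and 1338397 with 100 µM. Genes of mitochondrial DNA (mtDNA) took 4.35% and 10.4% of the counts in the controls, 43.7% and 61.1% with 10 µM, and 3.58% and 3.32% with 100 µM. Levels are therefore given as a share of the counts on nuclear genes, of which there were 230210 and 54502 in the controls, 24505 and 11406 with 10 µM, and 2064527 and 1293961 with 100 µM. Pseudogenes took 0.614% and 1.34% of the nuclear counts in the controls, 7.10% and 6.80% with 10 µM, and 1.07% and 1.03% with 100 µM. The part of these library differences in the results below was not tested. The labels put all libraries in 1 batch and do not say whether replicates came from separate cultures, so spreads and p-values may measure technical variation only. Control 1 and control 2 below are the control libraries labelled replicate 1 and 2.

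MALAT1 spans chr11:65497762-65506516 on the plus strand (GRCh38, 8755 bases counted). It had 32494 counts in control 1 and 2808 in control 2, 17 and 13 counts with 10 µM, and 61687 and 34744 counts with 100 µM. Its share of nuclear counts was 14.1% (95% exact binomial interval 13.97 to 14.3) and 5.15% (4.97 to 5.34) in the controls, 0.0694% (0.0404 to 0.111) and 0.114% (0.0607 to 0.195) with 10 µM, and 2.99% (2.96 to 3.01) and 2.69% (2.66 to 2.71) with 100 µM. The 3 doses did not overlap: the controls were highest, the 10 µM libraries lowest, and the 100 µM libraries lay between them. Intervals here and below cover counting error only. MALAT1 ranked first by count among all nuclear genes in both controls and both 100 µM libraries. At 10 µM it ranked 273rd of 4630 nuclear genes with a count in replicate 1 and 137th of 3065 in replicate 2.

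NEAT1 spans chr11:65422774-65445540 on the plus strand (22767 bases counted). It had 953 and 508 counts in the controls, 4 and 3 counts with 10 µM, and 10033 and 6341 counts with 100 µM. Its share of nuclear counts was 0.414% (0.388 to 0.441) and 0.932% (0.853 to 1.02) in the controls, 0.0163% (0.00445 to 0.0418) and 0.0263% (0.00542 to 0.0768) with 10 µM, and 0.486% (0.477 to 0.496) and 0.490% (0.478 to 0.502) with 100 µM. The 10 µM libraries lay below all others, and the 100 µM libraries lay between the controls. By count NEAT1 ranked 15th and 3rd among nuclear genes in the controls, 1586th and 912th with 10 µM, and 9th and 6th with 100 µM.

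**Figure D1:**
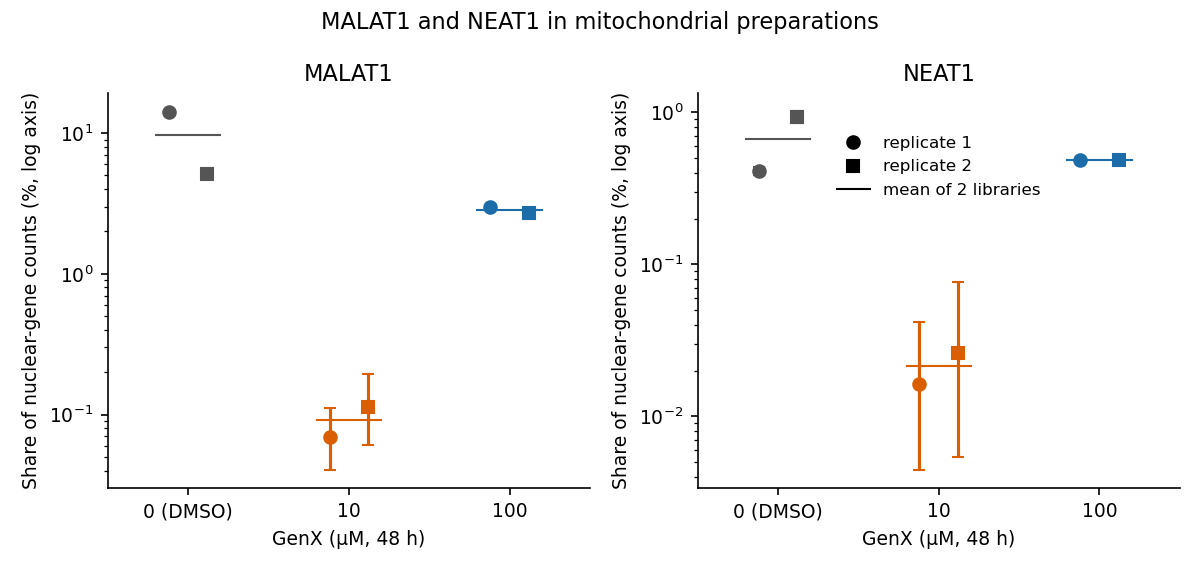
Share of nuclear-gene counts (percent, log axis) of MALAT1 and NEAT1 in each library against the GenX dose in µM, with exact 95% binomial intervals (smaller than the points outside 10 µM) and lines at the mean of 2 libraries. The 10 µM libraries lie lowest in both panels, at 0.0694% and 0.114% for MALAT1 and 0.0163% and 0.0263% for NEAT1.

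At 10 µM the mean MALAT1 share was 0.0917% ± 0.0315, against 9.63% ± 6.34 in the controls (SD, n = 2 each), 105-fold lower. The fold was 56.2 without control 1 and 154 without control 2. With counts pooled per dose it was 148-fold lower, with a 95% counting interval of 104 to 220. At the share of the lower control, the 10 µM libraries would have held 1263 and 588 MALAT1 counts, where 17 and 13 were counted. For NEAT1 the means were 0.0213% ± 0.00706 at 10 µM and 0.673% ± 0.366 in the controls, 31.6-fold lower, then 43.7-fold without control 1 and 19.4-fold without control 2. The pooled ratio was 26.3 (12.7 to 65.6) on 7 counts at 10 µM, where the share of the lower control would have given 101 and 47.2 counts. In edgeR's quasi-likelihood test of the 3180 genes that passed the filter on low counts, MALAT1 and NEAT1 among them, 0.597% of genes were called at 10 µM against control, 0.377% lower and 0.22% higher (adjusted p under 0.05). These were 7 genes higher and 12 lower, then 8 and 7 under size factors of DESeq2 and 0 and 7 under unscaled library sizes. The level of both RNAs in these libraries guided their choice, and nothing is read from that background here.

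At 100 µM the mean MALAT1 share was 2.84% ± 0.214, against 9.63% ± 6.34 in the controls (SD, n = 2 each), 3.40-fold lower. Control 1 carried much of that distance: the fold was 1.82 without it and 4.98 without control 2. For NEAT1 the means were 0.488% ± 0.00288 at 100 µM and 0.673% ± 0.366 in the controls, a ratio of 0.725. Its direction depended on 1 library, with a ratio of 0.524 without control 1 and 1.18 without control 2. Over all genes 0% were called at 100 µM against control in edgeR's quasi-likelihood test, where 573 of 3180 had an unadjusted p under 0.05, and DESeq2's Wald test called 244.

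Against the 10 µM libraries, which were the shallowest, the 100 µM libraries held a 30.9-fold higher mean share of MALAT1 and a 22.9-fold higher mean share of NEAT1. The pooled ratios were 34.4 (24.1 to 50.9) and 25.0 (12.1 to 62.2). In this comparison 0.755% of genes were called higher and 2.11% lower, 24 and 67 genes, then 6 and 73 under size factors of DESeq2 and 42 and 86 under unscaled library sizes. This comparison shares the 10 µM libraries with the one against control, so the high folds in both are not independent of each other.

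Per kilobase, which allows levels of different genes to be compared, MALAT1 stood far above the average nuclear gene. Its count density was 2178 and 795 times the mean over all nuclear exonic sequence in the controls, 10.7 and 17.6 times with 10 µM, and 461 and 414 times with 100 µM. Among nuclear genes of at least 500 bases, MALAT1 ranked 1st and 2nd by density in the controls and 3rd in both 100 µM libraries. At 10 µM it ranked 1072nd of 4373 and 610th of 2940 such genes with a count. NEAT1 had 24.6 and 55.3 times the mean density in the controls, 0.968 and 1.56 times with 10 µM, and 28.8 and 29.1 times with 100 µM. NEAT1 was thus near this mean at 10 µM, on 4 and 3 counts, and well above it elsewhere. The mean also covers the sequence of genes without a count. Among genes of at least 500 bases with a count, NEAT1 ranked low by density at 10 µM, 3704th of 4373 and 2593rd of 2940. It ranked 199th and 129th in the controls and 194th and 202nd with 100 µM.

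The same pattern held among long noncoding RNAs. MALAT1 took 89.0% and 56.6% of all lncRNA counts in the controls, 0.558% and 1.13% with 10 µM, and 50.5% and 50.9% with 100 µM. NEAT1 took 2.61% and 10.2% in the controls, 0.131% and 0.260% with 10 µM, and 8.22% and 9.29% with 100 µM. The lncRNA class itself took 15.9% and 9.11% of nuclear counts in the controls, 12.4% and 10.1% with 10 µM, and 5.91% and 5.28% with 100 µM. At 10 µM other lncRNAs made up nearly the whole class.

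Set against mtDNA counts, the RNA the preparation was made for, the distance at 10 µM was wider. MALAT1 had 3103 and 442 counts per 1000 mtDNA counts in the controls, 0.892 and 0.724 with 10 µM, and 804 and 782 with 100 µM. NEAT1 had 91.0 and 80.0 per 1000 in the controls, 0.210 and 0.167 with 10 µM, and 131 and 143 with 100 µM. On this scale the controls differed from each other by far less for NEAT1 than for MALAT1. Here the 100 µM libraries lay above both controls for NEAT1, while by share of nuclear counts they lay between them. A bulk library cannot separate fewer nuclei or nuclear fragments from less of these RNAs in each.

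The ratio of MALAT1 to NEAT1 does not depend on the denominator. Per kilobase it was 88.7 (95% counting interval 83.1 to 94.7) in control 1 and 14.4 (13.07 to 15.8) in control 2. It was 11.1 (3.60 to 45.1) and 11.3 (3.10 to 61.7) with 10 µM, and 15.99 (15.7 to 16.3) and 14.2 (13.9 to 14.6) with 100 µM. In 5 of the 6 libraries the ratio lay between 11.1 and 15.99, and control 1 stood apart with more MALAT1 for its NEAT1. The geometric means were 35.7 in the controls (14.4 without control 1), 11.2 at 10 µM and 15.1 at 100 µM. The wide intervals at 10 µM come from 4 and 3 NEAT1 counts, so a ratio there of up to 45.1 or 61.7 is within counting error.

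**Figure D2:**
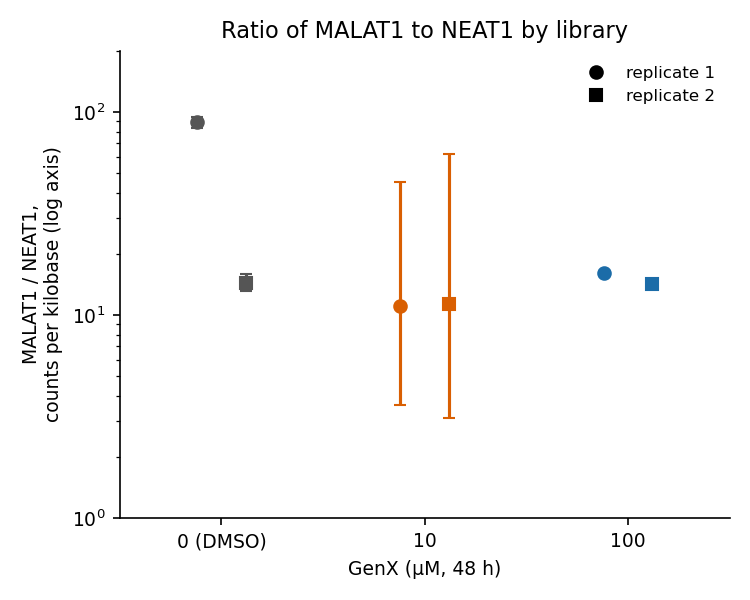
Ratio of MALAT1 to NEAT1 counts per kilobase (log axis) by library against the GenX dose in µM, with exact 95% counting intervals. Control replicate 1 stands at 88.7, the other 5 libraries lie between 11.1 and 15.99, and the 10 µM intervals are the widest.

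The mRNAs for proteins of the bodies that hold MALAT1 and NEAT1 differed less between doses by summed share, a difference that was not tested. Proteins of the nuclear speckle (20 listed genes) took 0.927% and 0.413% of nuclear counts in the controls, 0.175% and 0.324% with 10 µM, and 0.524% and 0.439% with 100 µM. Their mean share was 2.68-fold lower at 10 µM than in the controls. Of 16 tested, 0 passed in edgeR's quasi-likelihood test at 10 µM against control, with 4 lower at an unadjusted p under 0.05 and 2 called lower by DESeq2's Wald test. Those counts are 25% and 12.5% of the list, near the 22.3% and 12.1% of all genes tested that were lower by the same criteria. The median log2 fold change was -2.18, beside -3.18 over all genes tested, and without control 1 these were 0.27 and 0. With genes that had no count in a dose set to the bound that 3 counts give, the medians were -2.18 and -0.98. The median over all genes was -2.66 under size factors of DESeq2 and -2.64 under unscaled library sizes, and log2 values here include that shift. SON, a large scaffold of speckles, had 60 and 139 counts in the controls, 1 and 4 with 10 µM, and 1499 and 1479 with 100 µM, with a log2 fold change of -4.12 ± 1.48 (SE, n = 2 per group) at 10 µM against control (edgeR adjusted p = 0.148). SRSF11 and SRSF3, splicing factors, had most of their control counts in control 1 (829 against 7 and 457 against 1 in control 2). No direction is drawn from such genes.

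Proteins of the paraspeckle (20 genes) took 0.448% and 0.317% of nuclear counts in the controls, 0.216% and 0.245% with 10 µM, and 0.440% and 0.413% with 100 µM. The mean share at 10 µM was 1.66-fold lower than in the controls. Of 13 tested, 0 passed in edgeR at 10 µM against control, 2 were lower at an unadjusted p under 0.05, and DESeq2 called 1 lower. Those counts are 15.4% and 7.69% of the list, beside 22.3% and 12.1% of all genes tested. The median in edgeR was -2.43, or 1.39 without control 1, beside -3.18 and 0 over all genes. At 100 µM against control 0 genes of either list passed in edgeR, with 0 at an unadjusted p under 0.05 and 0 by DESeq2. Of all genes tested, 12% were higher and 6.04% lower at that unadjusted p, and 1.92% and 5.75% by DESeq2. The medians there were 0.11 for speckle and -0.10 for paraspeckle proteins, beside 0.35 over all genes. HNRNPK, an RNA-binding protein needed for paraspeckles, had 52 and 9 counts in the controls, 14 and 13 with 10 µM, and 1211 and 488 with 100 µM. Its count density was 15.1 and 30.1 times the nuclear mean at 10 µM, above that of MALAT1 (10.7 and 17.6 times) in the same libraries. In the controls it was 5.97 and 4.36 times the mean, where MALAT1 reached 2178 and 795 times. SFPQ, which binds NEAT1 in the paraspeckle core, had 435 and 2 counts in the controls, 3 and 1 with 10 µM, and 2217 and 1769 with 100 µM. RBMX, another binding partner, had 4 and 138 counts in the controls, 0 and 0 with 10 µM, and 277 and 122 with 100 µM. The controls disagreed in opposite directions for SFPQ and RBMX.

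Counting the long RNAs per 100 counts of these lists puts both in 1 value. Against speckle protein mRNAs MALAT1 had 1522 and 1248 counts per 100 in the controls, 39.5 and 35.1 with 10 µM, and 570 and 612 with 100 µM. Against paraspeckle protein mRNAs NEAT1 had 92.4 and 294 per 100 in the controls, 7.55 and 10.7 with 10 µM, and 110 and 119 with 100 µM. With either list as the base, the 10 µM libraries lay below all others. At 100 µM MALAT1 stayed below both controls, and NEAT1 lay between them.

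Cytosolic ribosomal protein mRNAs, an abundant cytosolic class, were lower at 10 µM too. The 88 genes took 4.14% and 7.04% of nuclear counts in the controls, 0.453% and 0.701% with 10 µM, and 5.20% and 5.90% with 100 µM. Their mean share was 9.69-fold lower at 10 µM than in the controls, while at 100 µM the ratio to the controls was 0.992. Of 80 tested, 0 passed in edgeR at 10 µM against control, with 57 lower at an unadjusted p under 0.05 and 46 lower by DESeq2. These are 71.2% and 57.5% of the list, beside 22.3% and 12.1% of all genes tested. The median was -5.25, or -3.96 with the 26 genes that had no count in a dose at their bound, beside -3.18 and -0.98 over all genes. At 100 against 10 µM 1 of the 80 passed, and it was higher, where 0.755% of all genes were called higher. NEAT1 had 9.99 and 13.2 counts per 100 ribosomal protein counts in the controls, 3.60 and 3.75 with 10 µM, and 9.35 and 8.30 with 100 µM. MALAT1 had 341 and 73.1 in the controls, 15.3 and 16.3 with 10 µM, and 57.5 and 45.5 with 100 µM. On this base too the 10 µM libraries were lowest for both RNAs, by less than on the base of all nuclear counts. The NEAT1 values at 10 µM rest on 4 and 3 NEAT1 counts beside 111 and 80 ribosomal protein counts. No counting interval was computed for them, so the place of NEAT1 at 10 µM on this base is open to counting error.

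**Figure D3:**
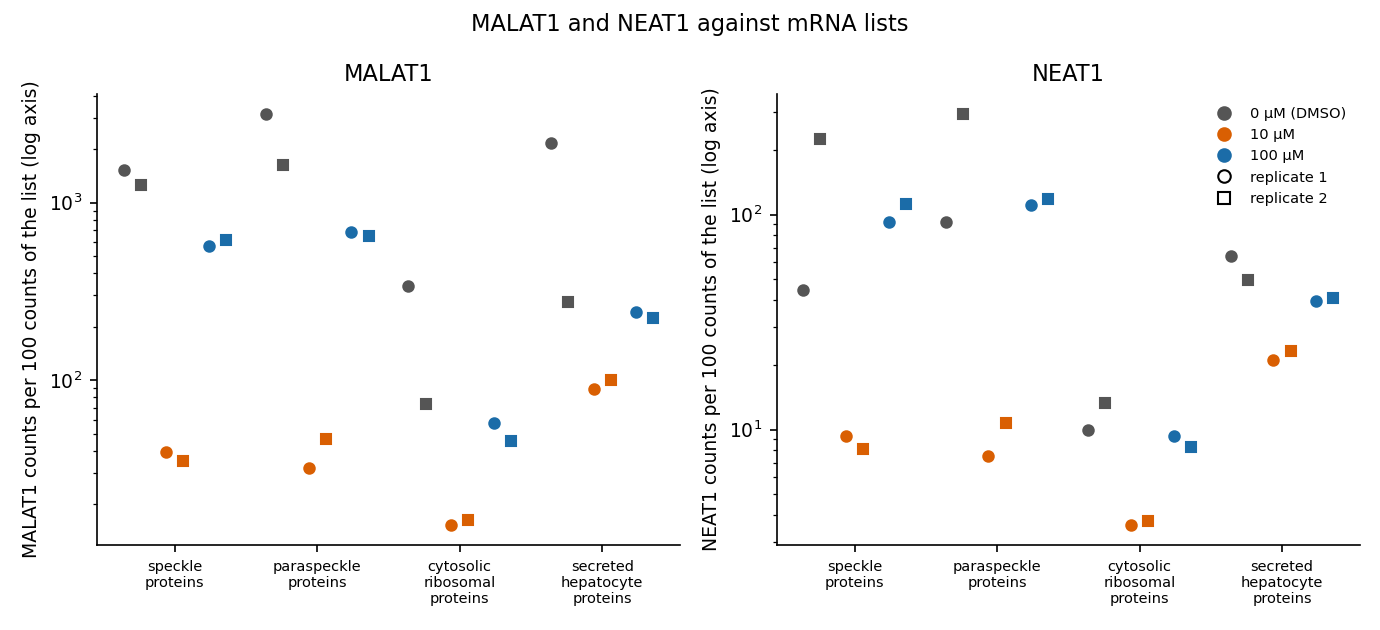
Counts of MALAT1 (left) and NEAT1 (right) per 100 counts of 4 lists of mRNAs, named by the proteins they encode (log axis), by library, with the doses 0, 10 and 100 µM side by side. The 10 µM libraries are lowest against each list, at 39.5 and 35.1 for MALAT1 over the speckle list and 3.60 and 3.75 for NEAT1 over the ribosomal list. The NEAT1 points at 10 µM rest on 4 and 3 counts, and no counting intervals are drawn.

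Other RNAs kept in the nucleus were too sparse to be compared with MALAT1 and NEAT1 in most cases. Of 12 further nuclear lncRNAs, 7 had any count and 3 were tested. In edgeR 0 passed in any of the 3 comparisons, where 2.86% of all genes passed in either direction at 100 against 10 µM. At an unadjusted p under 0.05, 0 of the 3 differed at 10 µM against control, 1 was higher at 100 µM against control and 1 at 100 against 10 µM, and DESeq2 called 0 in each. Of all genes tested, 12% and 29.5% were higher in those 2 comparisons at the same unadjusted p. KCNQ1OT1, which silences an imprinted cluster on chromosome 11, had 115 and 79 counts in the controls, 19 and 0 with 10 µM, and 3277 and 1257 with 100 µM. Its count density in 10 µM replicate 1 was 1.14 times the nuclear mean, close to the 0.968 times of NEAT1 in that library, beside 0.736 and 2.14 times in the controls and 2.34 and 1.43 times at 100 µM. TUG1, which acts in gene regulation, had 16 and 1 counts in the controls, 0 and 0 with 10 µM, and 391 and 35 with 100 µM. MEG8, from an imprinted cluster on chromosome 14, had 171 and 195 counts with 100 µM and 0 in the other 4 libraries.

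Of 10 mRNAs known to be held in the nucleus with unspliced introns, 6 were tested and 0 passed in edgeR at 10 µM against control, with 4 lower at an unadjusted p under 0.05 and 2 lower by DESeq2, beside 22.3% and 12.1% of all genes. They took 0.553% of nuclear counts in control 1 and 0.0477% in control 2, 0.0286% and 0.0701% with 10 µM, and 0.125% and 0.0907% with 100 µM. Control 1 was again apart. TRA2A, a splicing regulator, had 569 counts in control 1 and 0 in control 2, OGT, which adds O-GlcNAc to proteins, 393 and 5, and CCNL2, a cyclin of nuclear speckles, 151 and 8. The controls thus differed in several nuclear RNAs besides MALAT1, but in both directions. NEAT1 was higher in control 2 by share of nuclear counts (0.414% and 0.932%). So was KCNQ1OT1 by density (0.736 and 2.14 times the nuclear mean). The gap was not particular to these RNAs, with a chi-square per degree of freedom of 39.4 between the controls over 2961 genes. Results at either GenX dose against control rest on both control libraries.

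Noncoding RNAs of the cytosol gave a different order of doses. The 17 listed genes took 0.0639% and 0.0349% of nuclear counts in the controls, 0.00816% and 0.0614% with 10 µM, and 0.168% and 0.181% with 100 µM. Both 100 µM libraries lay above both controls, while MALAT1 lay below them. Of 6 tested, 0 passed in edgeR in any comparison, with 2 higher at 100 µM against control and 3 higher at 100 against 10 µM at an unadjusted p under 0.05, and DESeq2 called 1 higher in each. The shares of all genes were 12% and 29.5% at the unadjusted p, and 1.92% and 5.19% by DESeq2. GAS5, a growth-arrest transcript that hosts small nucleolar RNAs, had 71 and 5 counts in the controls, 0 and 1 with 10 µM, and 819 and 466 with 100 µM. NORAD, which binds Pumilio proteins, had 53 and 9 in the controls, 1 and 1 with 10 µM, and 633 and 227 with 100 µM. ZFAS1, another small nucleolar RNA host, had 1 and 0 in the controls, 0 and 0 with 10 µM, and 947 and 767 with 100 µM.

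The proteins that make and bind the 3′ ends, subunits of RNase P, the tRNA-processing enzyme ELAC2 and the RNA methyltransferases METTL16 and METTL3, had too few counts for a test. Of 12 listed genes 10 had any count and 0 were tested.

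Genes beside MALAT1 and NEAT1 on chromosome 11 gave another order of doses. In all 34 other genes lay within 200 kb, 18 of them had any count and 7 were tested. Together they took 0.0439% and 0.116% of nuclear counts in the controls, 0.575% and 0.193% with 10 µM, and 0.0451% and 0.0264% with 100 µM. The 10 µM libraries lay above all others, opposite to MALAT1 and NEAT1. In edgeR 0 of the 7 passed at 10 µM against control, with 2 higher and 1 lower at an unadjusted p under 0.05 and 3 higher by DESeq2, beside 5.85%, 22.3% and 5.28% of all genes, and their median log2 fold change was 2.73, or -6.98 without 10 µM replicate 1. RELA, a subunit of NF-κB, had 7 and 7 counts in the controls, 40 and 0 with 10 µM, and 123 and 16 with 100 µM. MAP3K11, a kinase upstream of JNK, had 6 and 0 in the controls, 31 and 3 with 10 µM, and 30 and 12 with 100 µM, and PCNX3 had 9 and 0, then 14 and 11, then 0 and 1. In 10 µM replicate 1 RELA and MAP3K11 had 40.4 and 16.2 times the nuclear mean density, beside 10.7 times for MALAT1, and both rested mainly on that library.

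Within 50 kb the named neighbours were sparse in every library. FRMD8, a partner of the iRhom proteins, ends 9249 bases before NEAT1 and had 18 and 3 counts in the controls, 12 and 0 with 10 µM, and 15 and 44 with 100 µM. LTBP3, which binds latent TGF-β, had 11 and 1 counts in the controls, 0 and 0 with 10 µM, and 58 and 15 with 100 µM. FAUP4, a pseudogene copy of FAU between NEAT1 and MALAT1, had 5 and 0, then 0 and 0, then 223 and 89, and reads from FAU itself could be among them. Inside the 2 long genes the tables list 3 small genes in NEAT1 and 4 in MALAT1, 2 of them on the opposite strand, and all had 0 counts in all 6 libraries. Reads there could belong to either gene.

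**Figure D4:**
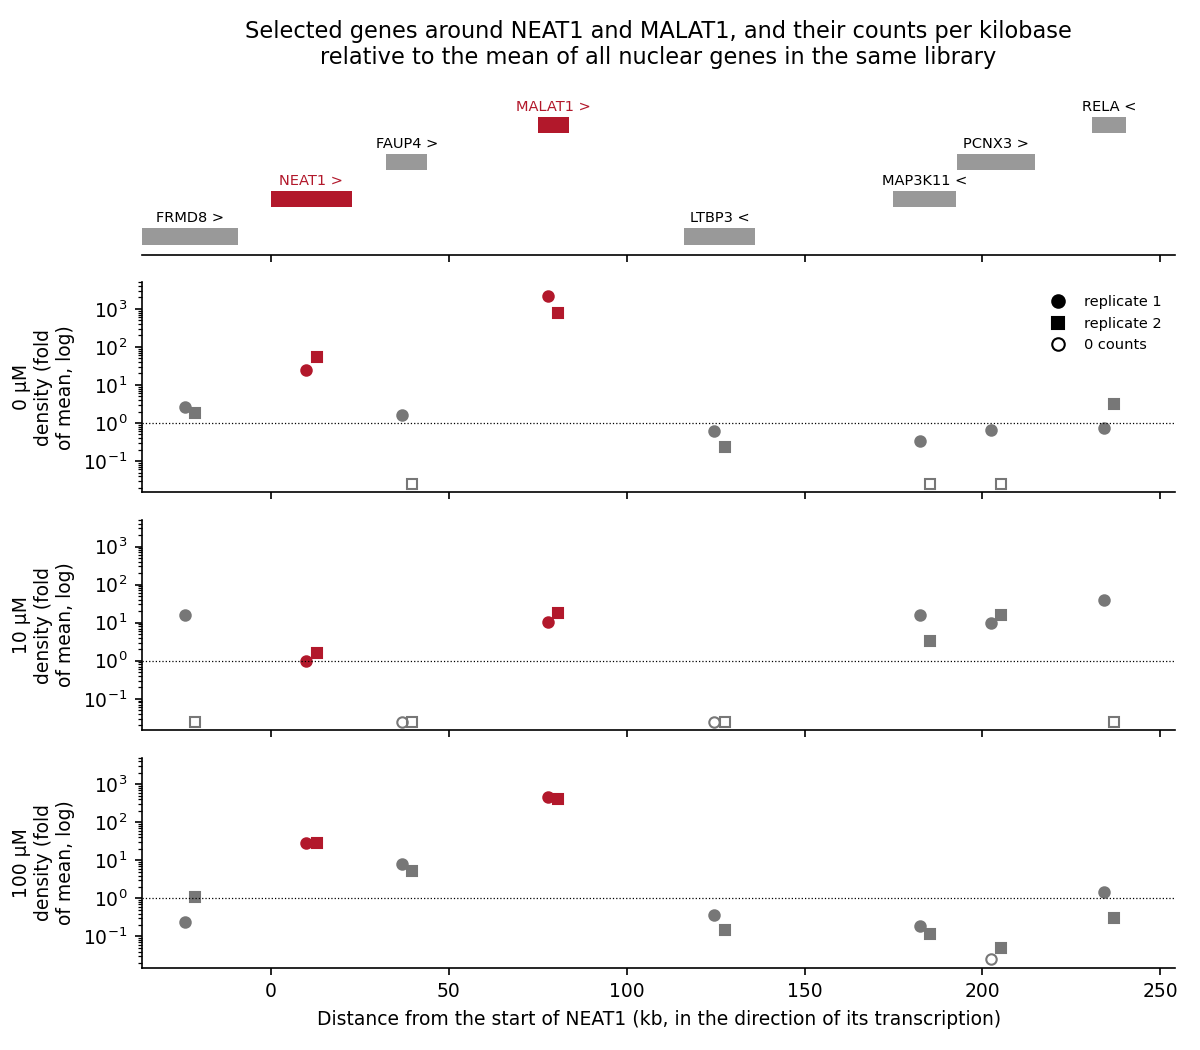
NEAT1, MALAT1 and the genes within 200 kb whose counts are given above, drawn by distance in kb from the NEAT1 start with arrows for the strand, and the count density of each as a multiple of the nuclear mean (log axis, dotted line at 1) per library at 0, 10 and 100 µM. MALAT1 stands at 2178 and 795 times the mean in the controls, 10.7 and 17.6 times at 10 µM and 461 and 414 times at 100 µM, and open points mark 0 counts. PCNX3 in 100 µM replicate 2, at 0.0131 times the mean, is drawn above its value, at the lowest height used for genes with a count.

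By the Pearson correlation of log2 CPM (counts scaled to the total of nuclear counts) over the 6 libraries, the 5 tested genes most like MALAT1 were THOC2, of the mRNA export complex (r = 0.995), ENAH, an actin regulator (0.995), EGLN3, a prolyl hydroxylase (0.993), AKAP12, an anchor of protein kinase A (0.993), and WTAP, of the RNA methylation complex (0.993). AKAP12 had 2076 and 235 counts in the controls, 3 and 2 with 10 µM, and 3679 and 2053 with 100 µM. Its share of nuclear counts was 0.902% and 0.431% in the controls, 0.0122% and 0.0175% with 10 µM, and 0.178% and 0.159% with 100 µM, an order of libraries that its choice by likeness to MALAT1 favours. NEAT1 ranked 139th of 3144 nuclear genes in likeness to MALAT1 (r = 0.942, Spearman's rho 0.6), where the median over all genes was 0.463. The genes most like NEAT1 were ROMO1, a mitochondrial inner membrane protein (0.996), TIMP2, a metalloproteinase inhibitor (0.996), SLC2A1, a glucose transporter (0.995), DLK1, a Notch-like ligand (0.995), and PICALM, of clathrin assembly (0.995), with a median over all genes of 0.517. MALAT1 ranked 244th there. With Spearman's rho 4 of the 5 genes named for MALAT1 stayed in the top 5, but only with ties counted in. AKAP12 was among 4 genes tied at the highest rho, and THOC2, ENAH and WTAP tied at rank 5 (rho 0.986). Of the 5 named for NEAT1 0 stayed, where 17 genes tied at the highest rho with NEAT1. With CPM of all counts 4 and 3 stayed. These points share libraries and depth, and most of the genes had 0 counts at 10 µM, so the values describe the 6 libraries only.

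The HepG2 label was checked with 16 mRNAs of proteins that hepatocytes secrete. Of these 15 had any count. They took 0.648% and 1.88% of nuclear counts in the controls, 0.0775% and 0.114% with 10 µM, and 1.23% and 1.20% with 100 µM, a mean share 13.2-fold lower at 10 µM than in the controls. They were low at 10 µM, as MALAT1 and NEAT1 were, but at 100 µM they lay between the controls, with a ratio of 0.959 to them. Of 7 tested, 1 fell at 10 µM against control and 1 rose at 100 against 10 µM, both APOA2, where 0.377% of all genes were called lower and 0.755% higher. At 10 µM against control 5 were lower at an unadjusted p under 0.05 and 4 by DESeq2, beside 22.3% and 12.1% of all genes, with a median of -5.85, or -4.20 with 1 gene at its bound. APOA2, an apolipoprotein of high-density lipoprotein, had 954 and 454 counts in the controls, 4 and 2 with 10 µM, and 18293 and 11076 with 100 µM. Its log2 fold change at 10 µM against control was -6.30 ± 0.818 (SE, n = 2 per group; edgeR adjusted p = 0.0111), lower in both libraries than in both controls, and over 14 other settings the adjusted p lay between 9.8e-09 and 0.373. Without 10 µM replicate 1 it was -6.56 (adjusted p = 0.373) and without replicate 2 it was -6.07 (adjusted p = 0.292) in edgeR. SERPINA1, the α1-antitrypsin gene, had 211 and 30 counts in the controls, 6 and 2 with 10 µM, and 2798 and 1809 with 100 µM, and APOA1 had 54 and 123, then 0 and 0, then 1312 and 765. Counts of ALB were 22 and 31, then 2 and 0, then 176 and 232, AFP had 0 in the controls and at 10 µM, and FGA had 0 in all 6 libraries. Per 100 counts of this list NEAT1 had 63.9 and 49.6 in the controls, 21.1 and 23.1 with 10 µM, and 39.5 and 41.0 with 100 µM. The values at 10 µM rest on 4 and 3 NEAT1 counts beside 19 and 13 counts of the list, and no counting interval was computed for them.

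Markers of immune, endothelial and connective tissue cells had few counts, at most 88 summed in a library. Of 10 genes 7 had any count, with PTPRC, CD3E and CDH5 at 0 in all 6 libraries. Their summed share was 0.0222% and 0.0220% of nuclear counts in the controls, 0.0408% and 0.0526% with 10 µM, and 0.00426% and 0.00657% with 100 µM. At 10 µM it lay above both controls, with a mean 2.1-fold higher, on 10 and 6 counts. In the same libraries NEAT1 took 0.0163% and 0.0263% and the hepatocyte list 0.0775% and 0.114%. The 2 marker lists were thus less far apart at 10 µM than at the other doses. The highest count in every library was that of COL1A1, a collagen chain, with 50 and 6 counts in the controls, 6 and 6 with 10 µM, and 67 and 42 with 100 µM. CD14, a marker of monocytes, was counted only with 100 µM, at 17 and 39.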

How the data were processed

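Each library came with 1 deposited table of raw read counts per gene and the counted length of each gene. Per the submitters' processing notes the tools were FastQC, STAR, featureCounts and DESeq2 with GRCh38. Versions, annotation release, strand setting and the handling of overlapping or multiply mapped reads are not given in the sources used here. All 57500 lines named a gene. Symbols came from a table of gene names that held 56410 of the identifiers, and gene types from GENCODE v29, which held 56898.

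The members and gene lists were chosen with earlier results of these data known. Nuclear counts were those on the 57465 genes outside mtDNA, and counts per kilobase used the deposited length. Shares carry exact 95% binomial intervals and ratios exact 95% counting intervals. Genes without a count in a dose were set to 3 counts of that dose for list medians, where the text says so.

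Background and list values came from edgeR 4.0.16 in R 4.3.3 (filterByExpr, TMM, robust quasi-likelihood fit of all 6 libraries, two-sided), adjusted by Benjamini-Hochberg over 3180 genes at 0.05, and DESeq2 1.42.0 served as an alternative on the same genes. Checks on count data with known folds recovered 0% of genes changed 4-fold, 10.4% of those changed 16-fold and 44.9% of those changed 64-fold at 10 µM against control, over 2490 genes. The same shares were 5.66%, 50.9% and 95.1% over 2400 genes at 100 µM against control, and at 100 against 10 µM 3.57%, 40.4% and 86% over 2449 genes. All genes were given the same set spread between replicates there, which was not fitted to these libraries. The shares therefore do not give the power of the comparisons made here.

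Groups and replicate numbers came from the sample titles. Replicates differed by more than counting noise, with a chi-square per degree of freedom of 39.4 for the controls, 12.9 with 10 µM and 35.2 with 100 µM, so no pair was treated as repeats of 1 library, which does not show that they came from separate cultures. Named were MALAT1 and NEAT1, in each list up to 3 members with the highest mean CPM and any that passed, genes within 50 kb with at least 10 counts in all, and the 5 genes most like each member (log2 CPM, prior count 2). Genes named outside this rule, such as ALB, AFP, FGA, RN7SK, RPPH1, TERC, CD14 and the marker genes at 0, were named after their values were seen, and 2 genes that the rule gives are not reported here. Alternatives were other scalings, filters, tests, denominators, a replicate block, only the 4 libraries compared, and leaving out each library.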

Additional observations from a re-analysis of the deposited data

How the results depend on the processing

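With 2 libraries per dose, leaving out 1 gives the value of the other, so the ranges here repeat the values per library and are no separate check. The MALAT1 share ranged over 5.15% to 14.1% in the controls, 0.0694% to 0.114% at 10 µM and 2.69% to 2.99% at 100 µM, without overlap between doses. The NEAT1 share ranged over 0.414% to 0.932% in the controls, 0.0163% to 0.0263% at 10 µM and 0.486% to 0.490% at 100 µM. It was lowest at 10 µM throughout, while its order between the controls and 100 µM depended on the control library. The ratio per kilobase ranged over 14.4 to 88.7 in the controls, 11.1 to 11.3 at 10 µM and 14.2 to 15.99 at 100 µM. With counts on all genes as the denominator, MALAT1 took 0.0417% at 10 µM and NEAT1 0.00970% at 10 µM and 0.471% at 100 µM, because mtDNA counts are then included. At 100 µM NEAT1 took 0.523% of protein-coding counts and 0.532% of nuclear counts without the 10 most abundant genes. Ratios of plain counts were 4.29 at 10 µM and 5.80 at 100 µM, since NEAT1 is the longer gene.

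Calls over all genes were far less stable, and the cause was not tested. At 10 µM against control 19 calls became 7 with library sizes alone, 554 in DESeq2's Wald test, 7 without a filter, 95 with a mean of at least 5 CPM and 12 with only the 4 libraries compared. They ranged from 0 (without either 10 µM library) to 624 (without control 2), with 245 without control 1. At 100 µM against control 0 became 4 with DESeq2 size factors and 244 in the Wald test, and ranged from 0 to 43. At 100 against 10 µM 91 became 383 in the Wald test, 3 without a filter, 291 at 5 CPM and 797 with the 4 libraries, and ranged from 0 to 881.

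Calls among the listed genes numbered 1 at 10 µM against control, then 58 in the Wald test, 0 without a filter, 16 at 5 CPM, 0 with the 4 libraries, and 0 to 63 without 1 library. At 100 µM against control 0 became 7 in the Wald test and 0 to 2 without 1 library. At 100 against 10 µM 2 became 1 with DESeq2 size factors, 7 with library sizes alone, 30 in the Wald test, 1 without a filter, 34 at 5 CPM, 75 with the 4 libraries, and 0 to 78 without 1 library.

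Same-numbered libraries did not deviate together (correlations of deviations 0.00033 for control and 10 µM, 0.0032 for control and 100 µM and -0.022 for 10 and 100 µM), and the main test did not pair them. Deviations of single genes carry counting noise, so these values cannot tell whether same-numbered libraries shared a culture or a day. With the replicate block the calls numbered 75, 22 and 136, and those among the listed genes 10 and 7 in both comparisons with the 10 µM libraries.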
